A study of Mus musculus with 4 samples.

Results

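Gene expression was compared between H3R26C and H3WT mesenchymal progenitor cells (MPC) that had received only the vehicle DMSO. Both lines derive from C3H 10T1/2, a mouse embryo line of multipotent mesenchymal progenitors, and carry a lentiviral cDNA of human histone H3.1 in addition to the cells' own H3 genes. The cDNA is wild type in H3WT and has a cysteine in place of an arginine of the histone tail, as the name gives it, in H3R26C. It was driven by the EF1 promoter, ended in HA and FLAG tags and was selected with puromycin, so that both lines share the vector, the tags and the selection. Each line is a stable transduced culture and each condition is 1 droplet library, so that genotype, transduced line, culture and library cannot be told apart. The matrices count mouse genes and do not list the transgene, so the genotype labels were not checked from the counts. The other 2 of the 4 libraries of the series come from the same lines treated with 5-Azacitidine (5-Aza), a DNA methyltransferase inhibitor, and are used here only to set the same genes side by side.

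Cells were kept if they held at least 5000 unique molecular identifiers (UMIs, each standing for 1 captured RNA molecule), at least 1500 genes and at most 20% mitochondrial UMIs. This left 3710 of 6239 barcodes in the H3WT DMSO library (59.5%) and 4727 of 6540 in the H3R26C DMSO library (72.3%), together 8437 of the 22049 kept cells of the series. The kept cells held 86871326 UMIs in H3WT and 84060490 in H3R26C. The median cell held 22420 UMIs in H3WT, 3.86% of them mitochondrial, and 16598 UMIs in H3R26C, 2.76% of them mitochondrial. The libraries shared 24 kept barcode sequences.

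The arginine replaced in H3R26C lies beside the lysine of the H3 tail that PRC2 (Polycomb repressive complex) methylates, a mark of silenced developmental genes. Mesenchymal progenitors can form muscle, fat, cartilage and bone cells, and before they do so they secrete collagens, elastic fibre proteins and proteoglycans. The comparison asks what differed between the lines when only the vehicle was given, without the DNA methyltransferase inhibitor that induces differentiation. These cells are vehicle controls. The paper collected the inhibitor-treated cells after weeks of culture and profiled the controls together with them. It names no separate collection day for the controls. The controls are therefore not read as a time point before induction.

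Within each library the kept cells were added up and expressed as CPM (counts per 1000000 UMIs). A log2 ratio is that of H3R26C over H3WT after 1 CPM was added to each level, and a fold is the plain ratio of the CPM levels. A gene was called when its log2 ratio was at least 1 in size (2-fold) and its mean over both libraries at least 5 CPM. Past or under 2-fold, and at least 2-fold, refer throughout to this log2 ratio, so that a low gene can have a plain ratio above 2 and yet lie under the limit. By the plain ratio 165 genes would be higher and 55 lower. With 1 library a side there is no spread between replicates and no test, and the intervals given are exact 95% intervals that cover counting error only.

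Most genes were at similar levels in the lines. Of 9929 genes averaging at least 5 CPM, 94.1% lay within 1.5-fold, and the median log2 ratio was 0.04. At least 2-fold higher in H3R26C were 120 genes (1.21%), and at least 2-fold lower were 43 genes (0.433%), or 1.64% in either direction. Beyond 4-fold there were 24 genes on the higher and 4 on the lower side. Just inside the limit lay H2-M3, with a log2 ratio of 1.004, and Akap6, with −1.003. Just outside it lay Kif4 at 0.998 and Slc9a3r1 at −0.998.

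**Figure D1:**
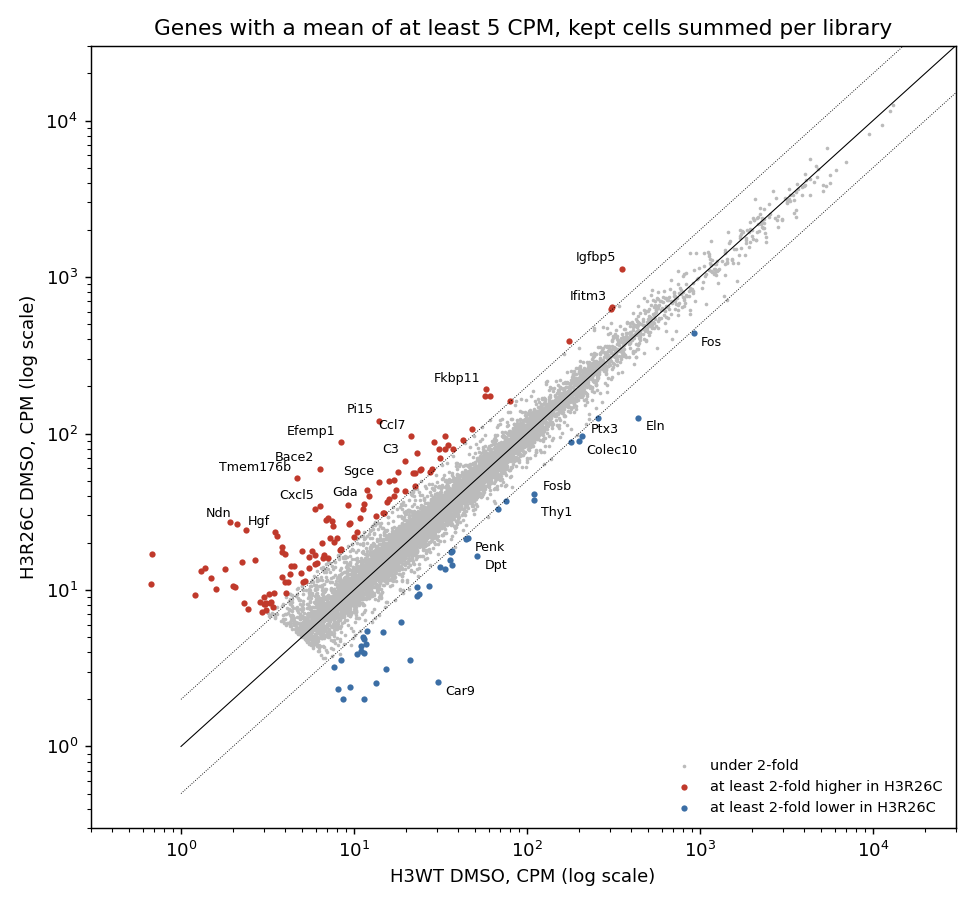
Each point is a gene averaging at least 5 CPM, with its H3WT DMSO level on the x axis and its H3R26C DMSO level on the y axis, in CPM on log scales. The solid line marks equality and the dotted lines a 2-fold ratio of CPM, Pde3b is not drawn because its H3WT level was 0, and Igfbp5 (354 and 1134 CPM) and Fos (921 and 438 CPM) are among the abundant genes past the limit.

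The comparison was repeated in non-cycling cells, those with at most 1 UMI over Mki67, Top2a, Cdk1, Ccnb2 and Rrm2, which are genes of dividing cells. They numbered 3310 in H3WT and 4076 in H3R26C. Among 9765 genes averaging at least 5 CPM in these cells, 103 were at least 2-fold higher (1.05%) and 33 at least 2-fold lower (0.338%), or 1.39% in either direction. Of the genes called in all kept cells, 97 of the 120 higher and 31 of the 43 lower were also at least 2-fold apart, the same way round, in non-cycling cells. This overlap reads the log2 ratio alone, without the 5 CPM minimum in non-cycling cells. Some of these genes, such as Ngfr and Mmp9, averaged less than that in non-cycling cells.

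Efemp1, Tmem176b, Bace2 and Pi15 led the rises among genes averaging at least 20 CPM. Efemp1 (ENSMUSG00000020467), which encodes fibulin-3, an extracellular glycoprotein, was at 8.36 CPM in H3WT against 87.9 CPM in H3R26C, 10.5-fold higher (9.74 to 11.4). Tmem176b, a membrane protein best known from immune cells, was at 4.69 CPM in H3WT against 51.8 CPM in H3R26C, 11.0-fold higher (9.98 to 12.3). Bace2, an aspartic protease related to the beta-secretase of the amyloid precursor, was at 6.34 and 59.6 CPM, 9.40-fold higher (8.61 to 10.3). All 4 were higher in H3R26C in non-cycling and in cycling cells alike. Pi15, a secreted protein of the CAP family, was at 14.0 CPM in H3WT against 121 CPM in H3R26C, 8.67-fold higher (8.17 to 9.21).

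Tmem176a, the neighbour and paralog of Tmem176b, rose as well. It was at 1.91 CPM in H3WT against 27.1 CPM in H3R26C, 14.2-fold higher (12.1 to 16.7), and was picked for description after its value was seen. The genes lie on chromosome 6, are read in opposite directions and have starts 577 bases apart. After each cell was thinned to 5000 UMIs, 35.3% of the H3R26C cells with a Tmem176b UMI also had one of Tmem176a, against 3.96% of the other H3R26C cells. In H3WT these shares were 13.8% and 0.356%, the first over only 58 cells.

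The windows from 250 bases before to 50 bases after the annotated starts of Efemp1 and Tmem176a, from RefSeq on GRCm38.p6, are shown because these genes led the rises and because the Tmem176a window also holds sequence upstream of Tmem176b. The Efemp1 window is chr11:28852955-28853254 on the plus strand and is 54.3% G and C. The Tmem176a window is chr6:48841233-48841532 on the plus strand and is 59.7% G and C. It is 1 of 2 annotated windows of the gene. The gene model start at base 48840919, from which the distance above was taken, lies outside it. The window shown shares 208 bases with 1 of the annotated Tmem176b windows, which is read from the minus strand. No motif is marked in either.
Efemp1: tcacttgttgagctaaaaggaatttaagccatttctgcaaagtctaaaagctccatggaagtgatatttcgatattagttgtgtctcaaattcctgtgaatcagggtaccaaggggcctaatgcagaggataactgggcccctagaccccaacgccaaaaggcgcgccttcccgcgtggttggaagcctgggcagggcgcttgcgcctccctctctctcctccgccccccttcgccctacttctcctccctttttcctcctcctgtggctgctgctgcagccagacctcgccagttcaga
Tmem176a: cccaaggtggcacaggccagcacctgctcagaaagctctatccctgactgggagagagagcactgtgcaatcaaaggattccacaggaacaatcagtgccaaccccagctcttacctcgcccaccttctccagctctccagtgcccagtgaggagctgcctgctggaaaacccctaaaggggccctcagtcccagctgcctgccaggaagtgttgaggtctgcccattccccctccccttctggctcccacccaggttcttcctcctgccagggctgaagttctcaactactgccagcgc

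The next rises were in secreted and membrane proteins and in enzymes. Cxcl5, a chemokine that attracts neutrophils, was at 6.34 CPM in H3WT against 34.4 CPM in H3R26C. Ccl7, a chemokine that attracts monocytes, was at 21.4 and 96.4 CPM. Igsf10, a protein of the immunoglobulin superfamily, was at 9.26 and 34.7 CPM. The log2 ratios of these genes were 2.27, 2.12 and 1.80. Gda, guanine deaminase, was at 11.9 CPM in H3WT against 43.4 CPM in H3R26C. C3, the central component of complement, was at 19.7 and 67.1 CPM. Fkbp11, a prolyl isomerase of the secretory pathway, was at 57.8 and 192 CPM, 3.33-fold higher (3.23 to 3.44). The most abundant of the leading rises was Igfbp5 (ENSMUSG00000026185), an extracellular binding protein of insulin-like growth factors. It was at 354 CPM in H3WT against 1134 CPM in H3R26C, 3.20-fold higher (3.16 to 3.25).

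Genes of the matrix and the cell surface led the falls. Eln (ENSMUSG00000029675), which encodes elastin, was at 441 CPM in H3WT against 126 CPM in H3R26C, 3.49-fold lower (3.42 to 3.57). Dpt, dermatopontin, a small matrix protein that binds decorin, was at 51.5 and 16.5 CPM, 3.12-fold lower (2.93 to 3.31). Thy1, the antigen CD90 that is used to define mesenchymal progenitors, was at 110 and 37.6 CPM, 2.92-fold lower (2.81 to 3.04). These genes were lower in cycling cells too, with log2 ratios of −2.38 for Eln, −2.24 for Dpt and −1.78 for Thy1.

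The other leading falls held stimulus-induced transcription factors and secreted proteins. Fosb was at 110 CPM in H3WT against 41.3 CPM in H3R26C, Atf3 at 31.3 and 14.0 CPM, and Fos at 921 and 438 CPM. Ptx3, a secreted pentraxin, was at 207 and 96.0 CPM. Colec10, a secreted collectin, was at 199 CPM in H3WT against 89.0 CPM in H3R26C, with a log2 ratio of −1.16. Tmem229b, a membrane protein, was at 36.7 and 14.5 CPM. G0s2, an inhibitor of the lipase that starts triglyceride breakdown, was at 35.7 and 15.5 CPM, and its log2 ratio of −1.15 was −0.92 in non-cycling cells. Penk, the enkephalin precursor, was at 45.4 and 21.4 CPM.

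Shares of cells with a UMI were compared after thinning each cell to 5000 UMIs, which removes the gap in depth. Fkbp11 was found in 21.9% of H3WT cells (20.6% to 23.3%) and 56.8% of H3R26C cells (55.4% to 58.2%). An Efemp1 UMI was found in 3.88% of H3WT and 29.0% of H3R26C cells, a Bace2 UMI in 2.86% and 23.4%, and a Tmem176b UMI in 1.56% and 13.6%. Without thinning the Efemp1 shares were 13.8% and 52.4%, the Bace2 shares 9.46% and 48.0%, and the Tmem176b shares 3.58% and 23.9%. Tmem176b was thus found in a smaller share of H3R26C cells than Efemp1 or Bace2. Eln went the other way, with a UMI in 55.6% of H3WT (53.9% to 57.2%) and 26.2% of H3R26C cells (25.0% to 27.5%), as did Thy1 with 32.5% and 12.5% and Fos with 79.1% and 58.4%. For Penk the shares were 7.01% and 6.05% although its summed level was 2.12-fold lower. No second cell type that should lack these genes was separated in the DMSO libraries, so a background share from free RNA was not measured, and H3WT shares of a few percent are not read as expression.

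**Figure D2:**
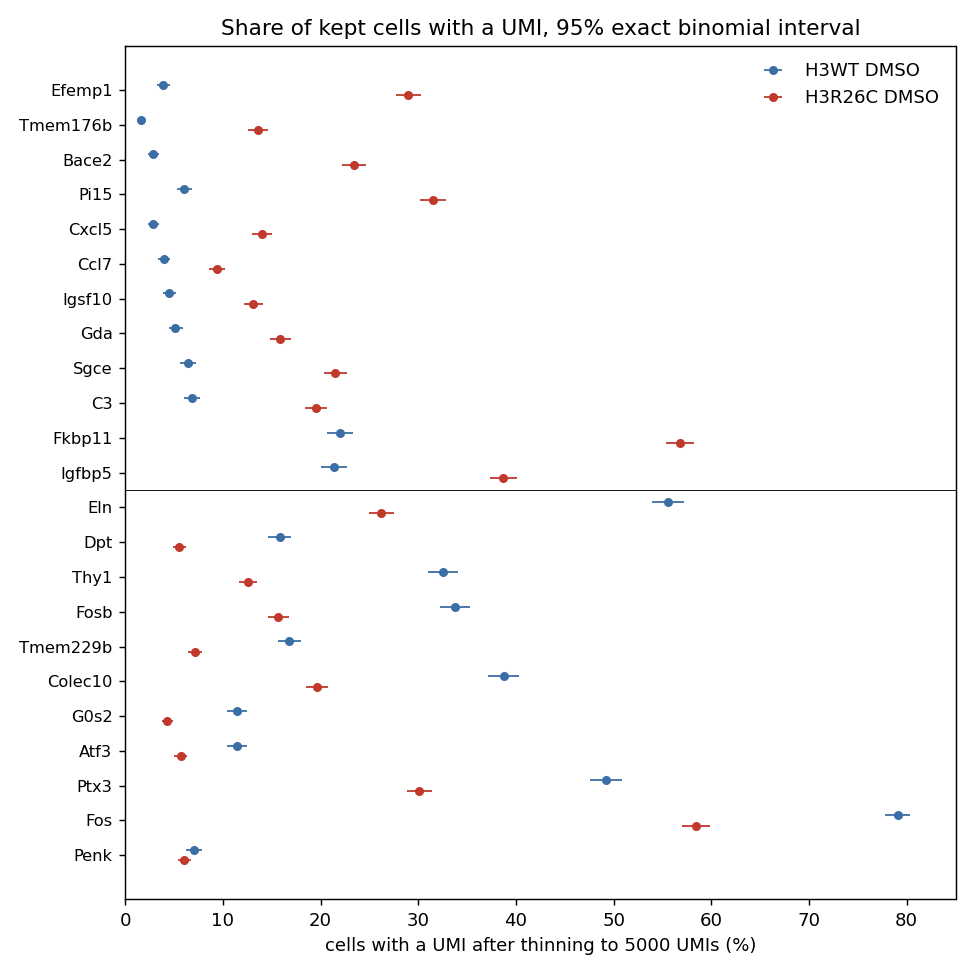
The x axis gives the percentage of kept cells with at least 1 UMI of a gene after thinning to 5000 UMIs, for the largest rises (top) and falls (bottom) named above, with H3WT DMSO in blue, H3R26C DMSO in red and bars as 95% exact binomial intervals. The intervals of the libraries lie apart for every rise, from Tmem176b (1.56% and 13.6%) to Fkbp11 (21.9% and 56.8%), while those of Penk (7.01% and 6.05%) overlap.

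The genes that rose were not all found in the same cells. Among H3R26C cells with a Tmem176b UMI after thinning, 41.8% had a Bace2 UMI and 42.1% an Efemp1 UMI, against 20.5% and 26.9% of the cells without Tmem176b. Pi15 was the other way round, with 21.2% of the Tmem176b-positive and 33.1% of the other H3R26C cells. Lxn, latexin, an inhibitor of carboxypeptidases, was found in 58.5% of the H3R26C cells with Tmem176b and 25.5% of those without. Cells with Pi15 held Efemp1 more often than cells without it (39.0% and 24.3%) and also Igfbp5 (46.5% and 35.1%). These shares describe cells of 1 library, and cells with more of any RNA after thinning were not set apart. Cycling and non-cycling cells were not set apart either. In H3R26C, Tmem176b was at 37.7 CPM in non-cycling and 110 CPM in cycling cells, and Lxn at 77.0 and 567 CPM. Pi15 was at 139 CPM in non-cycling and 48.1 CPM in cycling H3R26C cells. Among the 58 H3WT cells with Tmem176b, 8.62% had a Pi15 UMI, against 6.02% of the other H3WT cells.

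Some genes below the 20 CPM limit differed by more, and they were picked for description after their values were seen. Pde3b, a phosphodiesterase that degrades cAMP in insulin-responsive cells, had 0 UMIs in the H3WT DMSO library and 1191 UMIs in H3R26C, or 14.2 CPM. The lower limit of the exact 95% interval of this ratio was 333-fold. The H3WT 5-Aza library held 145 Pde3b UMIs, so the gene was counted in the H3WT line after 5-Aza. Whether other H3WT cultures without 5-Aza would hold it is not known from 1 library. Stmn2, a stathmin of neurons and some mesenchymal cells, was at 0.68 CPM in H3WT against 16.9 CPM in H3R26C, 24.9-fold higher (19.2 to 32.8), and was found in 0.162% and 3.58% of thinned cells. In non-cycling cells Stmn2 was at 0.07 and 5.86 CPM, and in cycling cells at 4.36 and 62.2 CPM. On the lower side, Car9, a carbonic anhydrase induced by low oxygen, was at 30.4 CPM in H3WT against 2.57 CPM in H3R26C, 11.8-fold lower (10.3 to 13.7). Padi2, an enzyme that converts protein arginines to citrulline, was at 21.1 and 3.58 CPM, 5.89-fold lower (5.21 to 6.68).

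Groups of genes were then read against the background of 1.21% higher and 0.433% lower. Within the matrix most genes stayed under 2-fold. None of 16 collagens of the fibrillar and FACIT classes and none of 11 basement membrane genes passed 2-fold, with median log2 ratios of −0.19 and −0.12. Of 20 elastic fibre and microfibril genes, Efemp1 and Fbln1 (2.05 and 10.4 CPM) were higher and Eln was lower. The other fibrillins, fibulins and crosslinking enzymes stayed under 2-fold, among them Fbn1 at 182 and 231 CPM, Fbln5, which binds elastin, at 1087 and 671 CPM, Mfap5 at 227 and 132 CPM and the lysyl oxidase Lox at 744 and 665 CPM. The median of the elastic fibre list was −0.08. Of 24 proteoglycans and matricellular genes, Vcan, the large proteoglycan versican, rose from 304 to 628 CPM, while Dpt and Eln fell, with a median of 0.01. Ccn5, also known as Wisp2, was at 193 and 98.4 CPM, Dcn (decorin) at 874 and 1420.1 CPM, and Spp1 (osteopontin) at 275 and 476 CPM, all under 2-fold.

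Among 17 matrix proteases and inhibitors, Mmp9 and Adamts2 rose. Mmp9, gelatinase B, was at 3.83 and 17.6 CPM, and Adamts2, which cleaves the amino propeptide of procollagens, was at 24 and 58.0 CPM. Most Mmp9 UMIs were in cycling cells, 265 in H3WT and 1211 in H3R26C, against 68 and 268 in non-cycling cells. Its non-cycling mean of 2.44 CPM lay below the 5 CPM minimum. Mmp2, the related gelatinase A, was far more abundant at 874 and 614 CPM and stayed under 2-fold.

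Several chemokine and complement genes rose. Of 11 chemokine and inflammatory genes, all had a ratio above 0, and Cxcl5, Ccl7, Ccl5 and Ccl2 were at least 2-fold higher, with a median of 0.57. Ccl2, the main monocyte attractant, was at 57.4 CPM in H3WT against 172 CPM in H3R26C, and Ccl5 at 3.84 and 18.9 CPM. Ccl5 was at 0.67 and 4.36 CPM in non-cycling cells and at 22.9 and 78.9 CPM in cycling cells. Ccl2 and Ccl7 are neighbours on chromosome 11, with starts 10141 bases apart. After thinning, 47.5% of the H3R26C cells with a Ccl2 UMI also held Ccl7, against 4.74% of the others, and in H3WT 30.3% and 2.42%. In non-cycling cells the log2 ratio of Ccl2 was 1.29 and that of Ccl7 was 0.87, while in cycling cells that of Ccl7 was 2.25.

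Among 10 complement genes, C3 and Cfd rose. Cfd, factor D or adipsin, an adipocyte product, was at 5.99 and 32.9 CPM, but was found in only 0.296% and 0.529% of thinned cells, so that few cells carried it. Serping1, the C1 inhibitor, was at 9.76 and 19.8 CPM, with a plain ratio of 2.03 and a log2 ratio of 0.95.

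Interferon-stimulated genes lay above 0 in 12 of 14 members, with a median of 0.48, but only Ifi27l2a (23.3 and 74.8 CPM) and Ifitm3, a membrane protein that blocks virus entry (311 and 640 CPM), passed 2-fold. Psmb8, an immunoproteasome subunit, was at 19.3 and 36.3 CPM, Isg15 at 13.0 and 23 CPM, and Ifit2 at 11.1 and 10.8 CPM. Among genes outside that list and picked after their values were seen, H2-Q4 was at 33.8 and 79.7 CPM, H2-T23 at 27.7 and 57 CPM, Cd74 at 5.10 and 11.3 CPM and Ube2l6 at 8.25 and 18.0 CPM. H2-Q4 and H2-T23 are class I histocompatibility genes with near-identical relatives, so their counts may share reads. B2m, the invariant chain of class I molecules, was at 624 and 603 CPM.

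Immediate early genes, which cells switch on within minutes of growth factors, stress or handling, lay mostly below 0. Of 21 members, 20 had a ratio below 0, the median log2 ratio was −0.68, and Fosb, Egr3, Atf3 and Fos passed 2-fold on the lower side. Egr3, a zinc finger factor, was at 27.0 and 10.7 CPM. The abundant members were at 1424 and 719 CPM for Ier2, 1385 and 751 CPM for Jund, 722 and 453 CPM for Junb, 567 and 354 CPM for Jun, and 881 and 582 CPM for Egr1, all under 2-fold. Fosl1, which encodes the AP-1 member Fra-1, rose from 7.24 to 21.5 CPM, with a log2 ratio of 1.45. In non-cycling cells the list median was −0.69. The 4 members Ier2, Jund, Junb and Klf2 lie on chromosome 8, whose genes as a whole had the lowest median of all chromosomes in non-cycling cells (−0.18). The median of the 17 members elsewhere was −0.67 in all kept cells, with 16 of them below 0, and −0.59 in non-cycling cells.

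The heat shock and unfolded protein genes, another group that responds to handling, had 0 of 18 members past 2-fold and a median of −0.10. Of the 18, 14 lay below 0, and 15 did so in non-cycling cells. Dnajb1, an Hsp70 cochaperone, was at 125 and 63.8 CPM (−0.96), the member farthest from 0. The labels give both libraries the same dissociation protocol, and a difference in handling between the libraries was not tested.

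The start windows of Fos, Fosb and Atf3 (RefSeq, GRCm38.p6, 250 bases before to 50 after the start) are shown because these early genes fell and because TGACG, the core of the sites that CREB and ATF proteins bind, occurs in each. Capitals mark TGACG or its reverse complement CGTCA. The Fos window is chr12:85473640-85473939 on the plus strand and holds 2 matches, the Fosb window chr7:19309996-19310295 on the minus strand with 1, and the Atf3 window chr1:191183284-191183583 on the minus strand with 1.
Fos: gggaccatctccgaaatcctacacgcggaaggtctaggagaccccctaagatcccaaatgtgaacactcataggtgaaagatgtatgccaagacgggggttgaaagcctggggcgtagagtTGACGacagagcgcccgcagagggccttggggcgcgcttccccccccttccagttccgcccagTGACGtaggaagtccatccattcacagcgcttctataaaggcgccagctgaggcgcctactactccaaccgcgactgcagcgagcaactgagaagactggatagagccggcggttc
Fosb: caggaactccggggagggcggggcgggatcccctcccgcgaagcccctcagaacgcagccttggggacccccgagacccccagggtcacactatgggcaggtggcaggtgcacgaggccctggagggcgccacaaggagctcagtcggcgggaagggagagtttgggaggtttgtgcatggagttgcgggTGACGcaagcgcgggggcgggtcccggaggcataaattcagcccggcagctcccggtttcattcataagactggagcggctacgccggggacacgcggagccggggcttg
Atf3: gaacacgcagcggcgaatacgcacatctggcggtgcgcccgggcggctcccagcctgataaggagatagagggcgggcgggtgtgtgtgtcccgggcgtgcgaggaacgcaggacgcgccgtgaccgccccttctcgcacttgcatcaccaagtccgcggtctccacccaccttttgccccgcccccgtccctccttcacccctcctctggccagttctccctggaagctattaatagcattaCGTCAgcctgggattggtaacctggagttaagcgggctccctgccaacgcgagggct

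TGACG on either strand was in the windows of 10 of the 16 early genes that have one (62.5%), against 23% of 27025 genes. The full palindrome TGACGTCA, which contains it, was in 1 (6.25%, against 2.03%), the CArG box that serum response factor binds in 2 (12.5%, against 1.81%), and TATAAA in 3 (18.8%, against 15.7%). The motifs were chosen after the values were seen, and a match is a description of the letters and not evidence of binding.

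**Figure D3:**
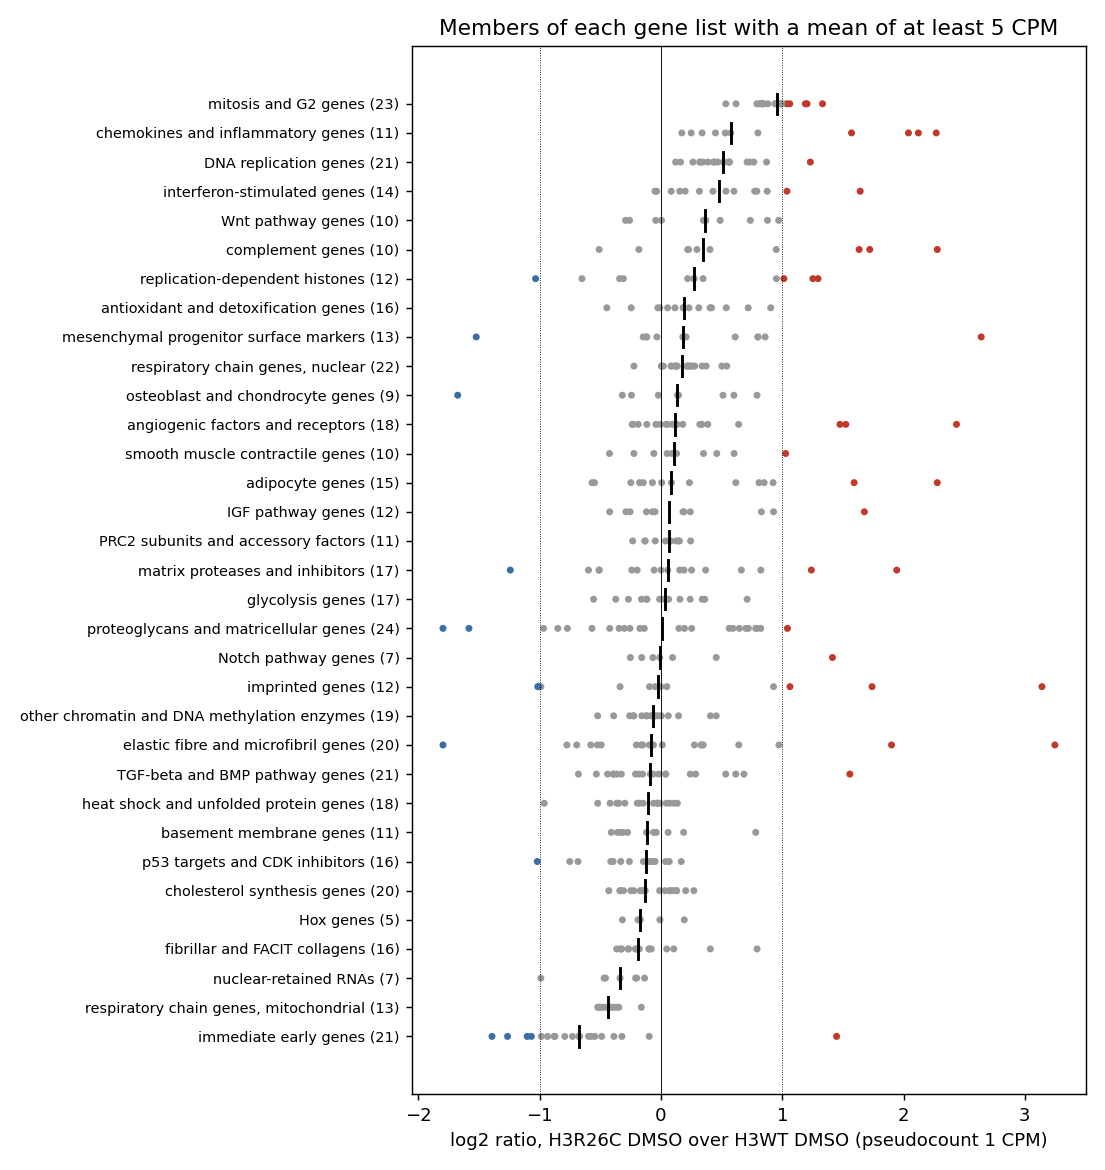
Each row is a gene list with its number of members at a mean of at least 5 CPM in parentheses, and each point is a member's log2 ratio of H3R26C DMSO over H3WT DMSO on the x axis, red or blue past 2-fold, with the list median as a black bar. The medians run from −0.68 for immediate early genes to 0.95 for mitosis and G2 genes, while collagens (−0.19) and PRC2 genes (0.07) have all members between the dotted 2-fold lines.

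Imprinted genes, expressed from the maternal or the paternal allele only, differed in both directions. Ndn, necdin, a growth-restraining protein, was at 2.10 CPM in H3WT against 26.3 CPM in H3R26C, 12.6-fold higher (10.8 to 14.7), and was found in 0.943% and 11.1% of thinned cells. Sgce, epsilon-sarcoglycan, was at 14.0 and 49.2 CPM, 3.51-fold higher (3.29 to 3.74). Peg10, whose start lies 99 bases from that of Sgce, was at 0.69 and 3.52 CPM, below the 5 CPM mean. H19, a long noncoding RNA, was at 37.5 and 79.5 CPM, and its neighbour Igf2, a fetal growth factor, at 13.6 and 26.8 CPM (0.93). On the lower side lay the members of the Dlk1 to Meg3 region of chromosome 12. Dlk1, a Notch-like inhibitor of adipocyte formation, was at 67.8 and 33.2 CPM, Rian at 36.4 and 17.5 CPM, and Meg3 at 137 and 68.5 CPM, with log2 ratios of −1.01, −1.02 and −0.99. In non-cycling cells Igf2 passed 2-fold (1.08), while Dlk1 (−0.85), Rian (−0.88) and Meg3 (−0.88) did not. Of 12 imprinted genes averaging at least 5 CPM, 3 were higher and 2 lower in all kept cells and 4 were higher and 0 lower in non-cycling cells, and Grb10, Plagl1, Igf2r and Airn lay within 0.1 of 0 in all kept cells.

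Genes of the histone mark itself were alike in the lines. None of 11 PRC2 subunits and accessory factors passed 2-fold (median 0.07), with Suz12 at 40.4 and 45.0 CPM and Ezh1 at 44.0 and 37.3 CPM. None of 19 other chromatin and DNA methylation enzymes passed it either (median −0.07), with Dnmt1 at 38.7 and 51.7 CPM and Tet3 at 66.9 and 46.3 CPM. Padi2, the arginine-converting enzyme described above (21.1 and 3.58 CPM), was not a member of this list. Only 5 of 34 Hox genes, classical PRC2 targets, had a mean of at least 5 CPM, all of the Hoxa cluster, and their ratios ran from −0.32 (Hoxa3) to 0.19 (Hoxa5). Below that mean, 5 of the 6 listed genes of the Hoxc cluster on chromosome 15 were at higher levels in H3R26C, and they were picked for description after their values were seen. Hoxc9 was at 0.656 CPM in H3WT (57 UMIs) against 6.27 CPM in H3R26C (527 UMIs), 9.55-fold higher (7.26 to 12.8), with a log2 ratio of 2.13 in all kept and 2.32 in non-cycling cells, and was found in 0.431% and 2.75% of thinned cells. The others rested on fewer UMIs, with 10 and 78 for Hoxc6, 6 and 42 for Hoxc10, 3 and 33 for Hoxc4, and 4 and 23 for Hoxc8, all under 2-fold after 1 CPM was added, and Hoxc5 was at 0.023 and 0.0238 CPM. With 5-Aza Hoxc9 was at 0.865 CPM for H3WT against 2.94 CPM for H3R26C.

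Signalling genes differed in single members. Hgf, hepatocyte growth factor, rose from 3.50 to 23.4 CPM, 6.67-fold (5.91 to 7.55). On the list of 18 angiogenic factors and receptors it was joined by Angptl4 (5.76 and 17.8 CPM) and Nfatc4 (17.0 and 50.6 CPM). Nfatc4 is neither a factor of this kind nor a receptor, and the paper names it under the term angiogenesis. Vegfa was at 41.0 and 42.2 CPM, and the list median was 0.11. Of the Notch genes, Notch3, a receptor of mural cells, rose from 9.35 to 26.6 CPM, as 1 of 7 members. Tgfbi, a matrix protein induced by TGF-beta, rose from 29.1 to 87.7 CPM, and it was the only 1 of 21 TGF-beta and BMP genes past 2-fold (median −0.09). Tgfb2 itself was at 134 and 83.1 CPM. None of 10 Wnt genes passed 2-fold in all kept cells, though Wnt5b, at 8.07 and 16.8 CPM, had a plain ratio of 2.08 and a log2 ratio of 0.97, and it was past 2-fold in non-cycling cells (1.06). Igfbp5 was the 1 IGF pathway gene of 12 past 2-fold, with the hormone Igf1 at 511 and 487 CPM.

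The identity of the cells as progenitors was read from marker genes. The summed level of 8 progenitor markers was 1408 CPM for H3WT and 1429 CPM for H3R26C, with 1 marker at 0 in each library, and Ly6a (Sca-1) was at 578 and 667 CPM. Within the surface markers Thy1 fell and Ngfr, the nerve growth factor receptor CD271, rose from 1.38 to 13.8 CPM, 10.0-fold (8.30 to 12.2). Skeletal muscle markers summed to 1.61 and 1.72 CPM over 8 genes, 7 of them under 1 CPM in both libraries and 2 of them at 0 in H3R26C. Myod1 and Myog each had 1 UMI in H3WT and 0 in H3R26C. Blood markers summed to 2.45 and 3.24 CPM with 2 of 5 at 0 in each library, endothelial markers to 4.69 and 5.42 CPM, and epithelial markers to 0.10 and 0.08 CPM. Chondrocyte markers summed to 32.9 and 43.3 CPM, smooth muscle markers to 14.0 and 14.5 CPM, and osteoblast markers to 254 and 252 CPM, nearly all of it Phex, at 250 and 246 CPM.

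Of the differentiated types, adipocyte markers had the sums farthest apart, 63.8 CPM for H3WT and 118 CPM in H3R26C. Fabp4, a fatty acid carrier, was at 18.0 and 56.4 CPM, yet the share of thinned cells with its UMI was 4.77% and 3.09%. The share due to free RNA was not measured, so these shares do not count the cells that expressed it. Among cells with at most 5% mitochondrial UMIs its log2 ratio was −0.19 rather than 1.59. Adipoq, the adipocyte hormone, was at 8.20 and 16.5 CPM and found in 0.836% and 0.698% of thinned cells. Pparg, the master regulator of fat cells, was at 27.4 and 26.1 CPM, and of 15 adipocyte genes only Fabp4 and Cfd passed 2-fold in all kept cells. In non-cycling cells Adipoq (1.02) and Lpl, lipoprotein lipase (1.003), passed it as well, 4 of 15 in all.

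Of the genes that the study follows in these cells, those averaging at least 5 CPM were Ly6a, Spp1, Hmga2, Enpp2, Notch3, Nfatc4, Pdgfra, Pdgfrb, Bmp4, Sox9, Cebpa, Pparg and Tgfb2, and their choice is not independent of these libraries. Hmga2, an architectural chromatin protein, rose from 6.52 to 20.1 CPM, and Enpp2, which makes lysophosphatidic acid, from 48.0 to 107 CPM, so that with Notch3 and Nfatc4 the count was 4 of 13. The ratio of Hmga2 was 1.15 in non-cycling cells and that of Enpp2 was 1.22.

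Genes of dividing cells lay above 0. All 23 mitosis and G2 genes had a ratio above 0, with a median of 0.95, and 5 passed 2-fold after 1 CPM was added (13 by the plain ratio), among them Ube2c (31.1 and 79.8 CPM), Prc1 (17.0 and 40.1 CPM), Aurkb (6.68 and 16.7 CPM) and Mki67 (28.4 and 59.2 CPM). All 21 DNA replication genes lay above 0 as well (median 0.51), and Tk1, thymidine kinase, passed 2-fold at 24.6 and 59.0 CPM. Cycling cells, with at least 2 UMIs over the 5 genes of the gate, were 10.8% of H3WT (9.80% to 11.8%) and 13.8% of H3R26C cells (12.8% to 14.8%). A deeper cell reaches 2 UMIs more easily, and after thinning to 5000 UMIs the shares were 4.72% (4.06% to 5.45%) and 9.20% (8.39% to 10.1%). With any UMI of the 5 genes counted and no thinning, the shares were 28.7% in each library. With the same gate after thinning they were 11.1% in H3WT (10.1% to 12.2%) and 16.5% in H3R26C (15.5% to 17.6%).

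The called genes were then read in non-cycling and in cycling cells apart. Of the 163 called genes, 23 higher and 12 lower were under 2-fold in non-cycling cells. Some of these lay near the limit there, such as Ube2l6 at 0.998 and Fos at −0.967. Whether the share of cycling cells accounts for any of them was not tested. Hist1h2ae, a replication-dependent histone, had a log2 ratio of 1.25 in all kept cells, −0.11 in non-cycling and 1.27 in cycling cells. Hist1h4i, a more abundant histone of the same list, went the other way and fell from 257 to 125 CPM. Its log2 ratios were −1.03 in all kept, −0.94 in non-cycling and −1.46 in cycling cells. Of the 12 listed histones averaging at least 5 CPM in all kept cells, 3 were at least 2-fold higher and 1 was lower. The median of such histones was 0.27 over the 12 averaging at least 5 CPM in all kept cells. It was −0.25 over the 10 that did so in non-cycling cells. Histone genes are near-identical and mostly lack a poly(A) tail, so that their counts are uncertain. Lxn, at 61.0 and 173 CPM, had a ratio of 0.77 in non-cycling and 1.83 in cycling cells. H19 and Igf2 were the reverse, at 1.23 and 1.08 in non-cycling and −0.02 and −0.15 in cycling cells. Efemp1 (3.16 and 3.65) and Bace2 (3.05 and 2.90) were well past 2-fold in both. Ngfr was at 2.31 and 2.40, but its non-cycling mean of 2.21 CPM lay below the 5 CPM minimum. It had 6 non-cycling UMIs in H3WT and 294 in H3R26C, against 114 and 870 UMIs in cycling cells. The CDK inhibitor Cdkn1a, which stops the cycle, was at 219 and 166 CPM, and of 16 p53 targets and CDK inhibitors only Gadd45g passed 2-fold, at 179 and 87.8 CPM.

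**Figure D4:**
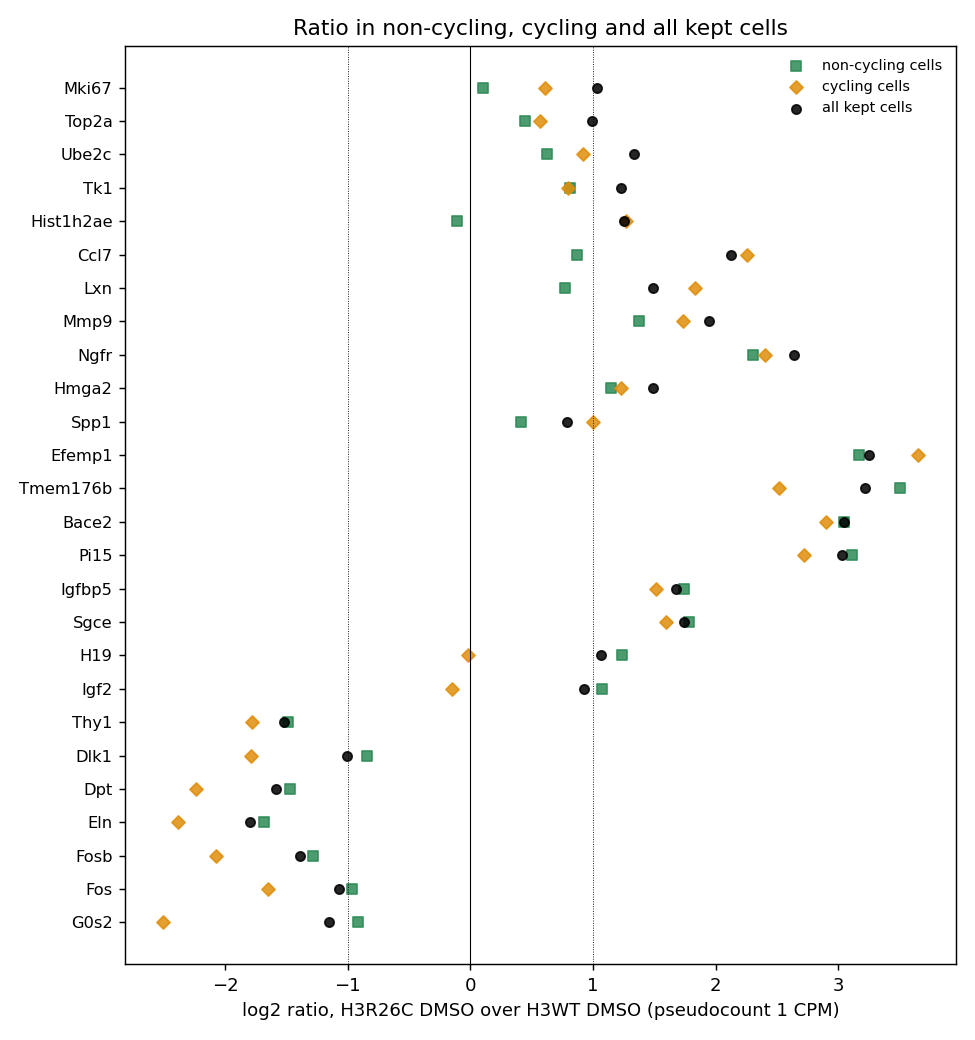
Points give the log2 ratio of H3R26C DMSO over H3WT DMSO of selected genes in non-cycling (green squares), cycling (orange diamonds) and all kept cells (black circles), with dotted lines at 2-fold. Efemp1, Bace2 and Ngfr lie past 2-fold in every class, Ngfr with a mean below 5 CPM in non-cycling cells. Hist1h2ae, Ccl7 and Lxn lie under 2-fold in non-cycling cells, and H19 and Igf2 lie near 0 in cycling cells.

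Respiratory chain genes of the mitochondrial and of the nuclear genome lay on opposite sides of 0. All 13 protein-coding genes of the mitochondrial genome had a ratio below 0 (median −0.44), with mt-Co2 at 5129 and 3571 CPM and mt-Nd1 at 2397 and 1687 CPM. Of 22 nuclear genes of the respiratory chain, 21 lay above 0 (median 0.17), with Cox6c at 751 and 1095 CPM and Atp5j2 at 493 and 698 CPM. None of either list passed 2-fold. The mitochondrial share of UMIs is also a measure of cell quality, and the cell quality part of this difference was not tested. All 7 nuclear-retained RNAs lay below 0 (median −0.34), among them Neat1 at 429 and 310 CPM, and 0 of them passed 2-fold. Glycolysis genes (17, median 0.03), cholesterol synthesis genes (20, median −0.13) and antioxidant and detoxification genes (16, median 0.19) had no member past 2-fold. Of 10 smooth muscle contractile genes only Myl9 did, at 3.12 and 7.40 CPM, and of 9 osteoblast and chondrocyte genes only Sox6, at 8.66 and 2.02 CPM.

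The 5-Aza libraries come from the same lines and are no replicates of the DMSO libraries. Among 10245 genes averaging at least 5 CPM there, 364 were at least 2-fold higher (3.55%) and 251 at least 2-fold lower (2.45%) in H3R26C. Of the 120 genes higher with DMSO, 66 were also at least 2-fold higher with 5-Aza and 2 at least 2-fold lower. Of the 43 lower genes, 25 were also lower with 5-Aza and 2 were higher. Efemp1 was at 25.6 CPM for H3WT and 206 CPM for H3R26C with 5-Aza, Bace2 at 3.38 and 27.0 CPM, and Tmem176b at 6.46 and 31.0 CPM. Eln was at 554 and 66.0 CPM with 5-Aza, and Fos at 494 and 44.7 CPM. The groups lay the same way round as with DMSO in these genes. Igfbp5 was at 835 and 800 CPM with 5-Aza, C3 at 83.9 and 93.3 CPM, and G0s2 at 61.0 and 62.9 CPM, so that the difference seen with DMSO was not there. Penk, lower in H3R26C with DMSO, was at 43.2 and 72.1 CPM with 5-Aza.

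**Figure D5:**
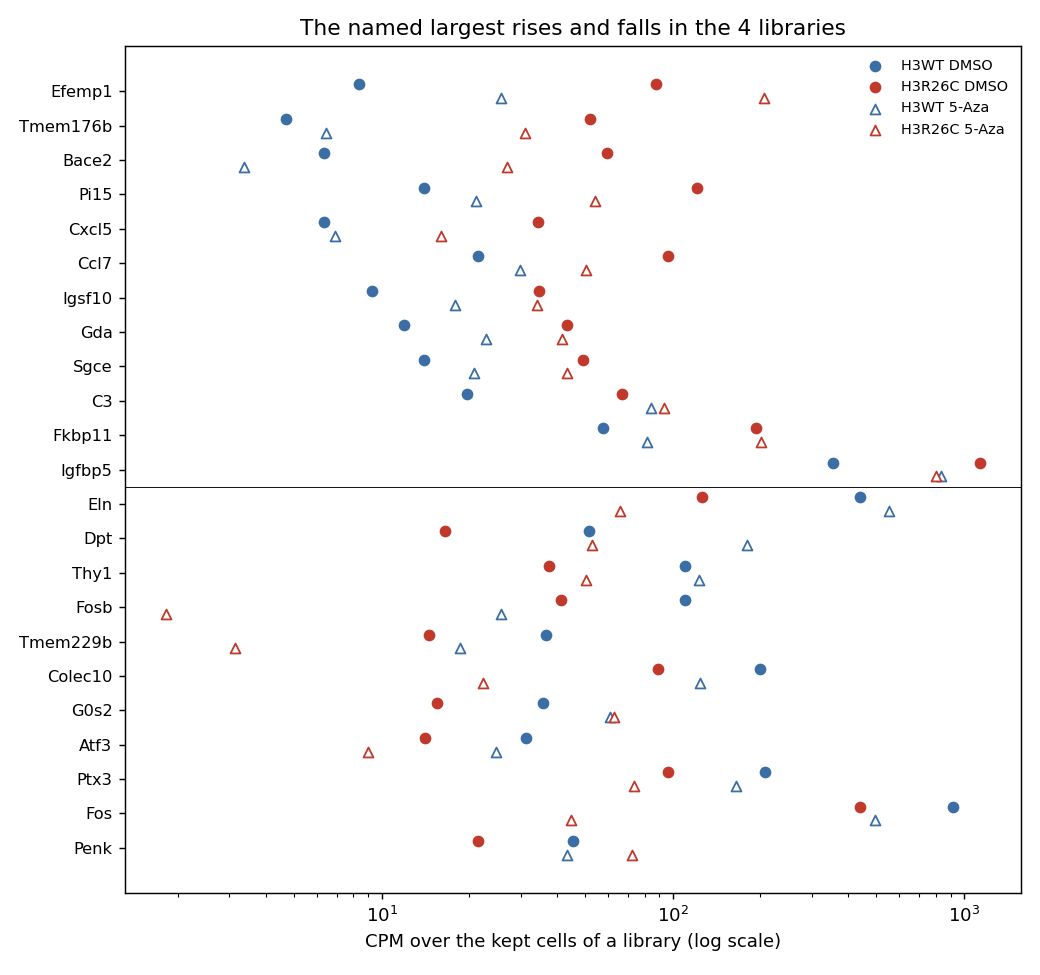
The x axis gives the level of each of the largest rises (top) and falls (bottom) named above in CPM on a log scale, with H3WT in blue and H3R26C in red, filled circles for DMSO and open triangles for 5-Aza. For Efemp1, Bace2, Eln and Fos the H3R26C and H3WT levels are apart the same way round in both treatments, while for Igfbp5 (835 and 800 CPM with 5-Aza) and G0s2 (61.0 and 62.9 CPM) the 5-Aza levels nearly coincide.

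Chromosomes as a whole were close to each other. The median log2 ratio of the genes of a chromosome in non-cycling cells was −0.18 for chromosome 8 and 0.21 for chromosome 15, and between −0.06 and 0.11 for the others. Copy number of the lines was not tested. Among the genes named above, Fkbp11, Enpp2, Fbln1, Colec10, Cox6c, Ly6a and the Hoxc genes lie on chromosome 15. Those on chromosome 8 include Dnajb1, Ier2, Jund, Junb and Klf2, given as examples and not as a full list.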

How the data were processed

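Droplet RNA counts of H3WT and H3R26C progenitors treated with DMSO were compared, with 1 library each. The authors obtained UMI counts on mm10 by means of Cell Ranger (6.1.0 per the file headers) and deposited filtered matrices of whole UMI counts without normalization. The submitters' processing notes also name Seurat 4. Kept cells were added up within a library and scaled to CPM with Python 3.11.15, numpy 2.4.6, scipy 1.17.1 and pandas 2.3.3, and TMM factors came from edgeR 4.0.16. The calls were tried on simulated counts with planted changes and counting error only, which cannot show the spread between cultures. Doublets were not removed; at 0.8% per 1000 barcodes they would be 4.99% of H3WT and 5.23% of H3R26C barcodes. The text names the 12 largest rises and falls with a mean of at least 20 CPM and the same sign in non-cycling cells, up to 3 members of each of 38 lists with a mean of at least 5 CPM, the genes the study follows and the 5 gate genes, and further list members as examples. The lists, the members and the rule were chosen with earlier results of these data known. Gene coordinates and chromosomes came from GENCODE M21 on GRCm38, which held 99.8% of 32285 genes. Alternatives changed scaling, pseudocount, expression minimum, cell filter, depth and gate. Some genes that the rule picks are not reported here. No gene was tested.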

Additional observations from a re-analysis of the deposited data

Results flagged for a closer look

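For 4 genes the H3R26C and H3WT libraries lay one way round with DMSO and the other way round with 5-Aza, each by at least 2-fold. Each level is that of 1 library, and the difference between the treatments was not tested.

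Car9, a carbonic anhydrase induced by low oxygen, was lower in H3R26C with DMSO (30.4 CPM in H3WT and 2.57 CPM in H3R26C, a log2 ratio of −3.14) and higher with 5-Aza (44.5 and 131 CPM, 1.53). Depp1, a regulator of autophagy, was lower with DMSO (9.46 and 2.40 CPM, −1.62) and higher with 5-Aza (5.85 and 14.0 CPM, 1.13). Cfd, or adipsin, was higher with DMSO (5.99 and 32.9 CPM, 2.28) and lower with 5-Aza (35.2 and 6.64 CPM, −2.24), with few cells holding its RNA in either DMSO library. Kctd12, a subunit that modulates GABA receptors, was higher with DMSO (21.9 and 56.2 CPM, 1.32) and lower with 5-Aza (23.5 and 8.63 CPM, −1.35).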

How the results depend on the processing

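No paired analysis was possible because there was a single library for each arm, and for the same reason no library could be left out. Of 71 named genes past 2-fold, 50 stayed past it under all 15 alternatives and 70 kept their sign; the exception was Fabp4, at −0.19 in cells with at most 5% mitochondrial UMIs, an alternative chosen after seeing the data. Over all kept cells no list median changed sign under these alternatives. In non-cycling cells the medians of 5 lists lay on the other side of 0: histones (0.27 to −0.25), PRC2 (0.07 to −0.02), imprinted (−0.03 to 0.06), TGF-beta and BMP (−0.09 to 0.01) and Notch genes (−0.01 to 0.03). With a pseudocount of 5 CPM, 76 genes were higher and 17 lower (61 and 17 in non-cycling cells). With a minimum mean of 1 CPM these counts were 219 and 71 (198 and 58), and with 20 CPM 49 and 19 (43 and 12). In cells of 10000 to 30000 UMIs 186 genes were higher. The non-cycling share was 89.2% in H3WT and 86.2% in H3R26C, and 95.3% and 90.8% after thinning. With a gate of 0 UMIs it was 71.3% in both without thinning, and 88.9% and 83.5% after thinning. With 1 library a side, the spread between cultures is unknown, and counting intervals leave it out. Among genes near 5 CPM a ratio depends on the pseudocount, and 0 UMIs in H3WT allows a share of cells with a UMI of up to 0.0809%, which limits captured UMIs, not cells expressing the gene.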
